A study of Mus musculus with 4 samples.

Results

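Muscle microRNAs are encoded in small clusters that pair a member of the miR-1 and miR-206 family with a member of the miR-133 family. The members described here are the mature arms of miR-1a, miR-133a, miR-133b and miR-206, chosen by name from the table of known mouse miRNAs. The list names 5 arms, and 4 of them have a row among the 1038 miRNAs of the table, namely mmu-miR-133a-3p, mmu-miR-133a-5p, mmu-miR-1a-3p and mmu-miR-133b-3p. mmu-miR-206-3p was not analysed here. Small RNAs were sequenced from the medial prefrontal cortex of male C57BL/6 mice (C57BL/6J in the study's methods), which entered the experiment at postnatal day 21. The CUMS group lived under chronic unpredictable mild stress (CUMS) for 3 weeks and held only those mice that changed in all of the sucrose preference, Y-maze and forced swimming tests, so that stressed mice without these changes are not represented. The control group lived without the stress. Tissue from both sides of the cortex was taken 24 hours after the tests, and each group has 2 libraries. RNA was isolated from each mouse separately, but the sources do not say whether each library was made from the RNA of 1 mouse, so the spread between libraries may be in part technical.

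In skeletal and heart muscle, miR-1 and miR-133 are cut from shared primary transcripts, and miR-1 is among the most abundant miRNAs of both tissues. miR-206 and miR-133b come from a second transcript that is active mainly in skeletal muscle. miR-1 and miR-206 share a seed, the bases near the 5′ end that pair with target mRNAs, and so do miR-133a-3p and miR-133b-3p. miR-1 is known for promoting muscle differentiation and miR-133 for sustaining the growth of muscle precursors, whereas miR-133b has also been studied in midbrain dopamine neurons.

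The mature arm of miR-133b and its hairpin are shown because the seed in this arm is also that of miR-133a-3p, the member that carried nearly all of the reads. In the first line the capitals mark the seed, bases 2 to 8, and in the second they mark the 3p arm within the hairpin, bases 66 to 87. The sequences are those of RefSeq for GRCm38.p6, and both are written 5′ to 3′. The set of sequences available here held 1 of the 4 measured members.
mmu-miR-133b-3p: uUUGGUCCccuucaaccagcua
mir-133b hairpin: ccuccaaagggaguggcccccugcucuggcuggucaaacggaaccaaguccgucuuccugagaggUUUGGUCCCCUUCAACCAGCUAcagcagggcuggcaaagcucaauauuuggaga
The mature arm is 22 nucleotides long and lies at chr1:20682834-20682855 on the plus strand. The 5p arm occupies bases 29 to 50 of the hairpin, with 15 bases between the arms. miR-133a-3p differs from miR-133b-3p only near the 3′ end, so that a read shortened at that end can match both, and the split of reads between them is uncertain.

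The genes lie close together in the GRCm38 annotation, the assembly also called mm10. Mir133b, at chr1:20682769-20682887, lies in an exon of the lincRNA gene Gm28653 on the same strand. Mir206, at chr1:20679010-20679082, overlaps the same lincRNA gene without lying within one of its exons, and 3686 bases separate the 2 hairpins. Mir1a-1, at chr2:180389048-180389124, and Mir133a-2, at chr2:180398379-180398482, are both on the plus strand with 9254 bases between them, and neither overlaps another annotated gene. A further copy of miR-1a and of miR-133a is encoded on another chromosome, so that reads of a mature arm cannot be assigned to 1 copy.

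The table gives the mean normalized reads of each group. The whole reads of the single libraries were recovered from these means, and within each group the libraries bear the letters a and b. The letter a marks the library with the larger size factor, the number by which its reads are divided. The letters cannot be matched to the replicate numbers of the samples. Totals were 10533646 and 10783592 known miRNA reads for the control group, against 10427625 and 9589323 for CUMS. A miRNA with 0 reads may still account for up to 3 reads, which is 2.78e-05% to 3.13e-05% of a library. Intervals and floors cover counting error only, as the reads carry no molecular identifiers. The tissue label was checked against miRNAs of cortical neurons. miR-124-3p had 23152 to 33239 reads and miR-9-5p had 501927 to 689083 reads in each of the 4 libraries. Control library b stood apart by its epithelial miRNAs, which are given below.

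The measured members were rare in this cortex. The 4 measured members had 236 and 348 reads in the controls, against 214 and 189 after CUMS, between 0.00197% and 0.00323% of the reads on known miRNAs. miR-133a-3p supplied 97.0% and 100% of these reads in the controls, against 96.3% and 94.2% after CUMS. By mean normalized reads, miR-133a-3p ranked 253 among the 1038 miRNAs, miR-133b-3p 679, miR-1a-3p 680 and miR-133a-5p 788. The plot of ranked means shows that 3 of the 4 members lie in the low tail. miR-133b-3p and miR-1a-3p, next to each other in this order, had means of 2.62 and 2.61 normalized reads and did not differ beyond the spread between libraries.

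**Figure D1:**
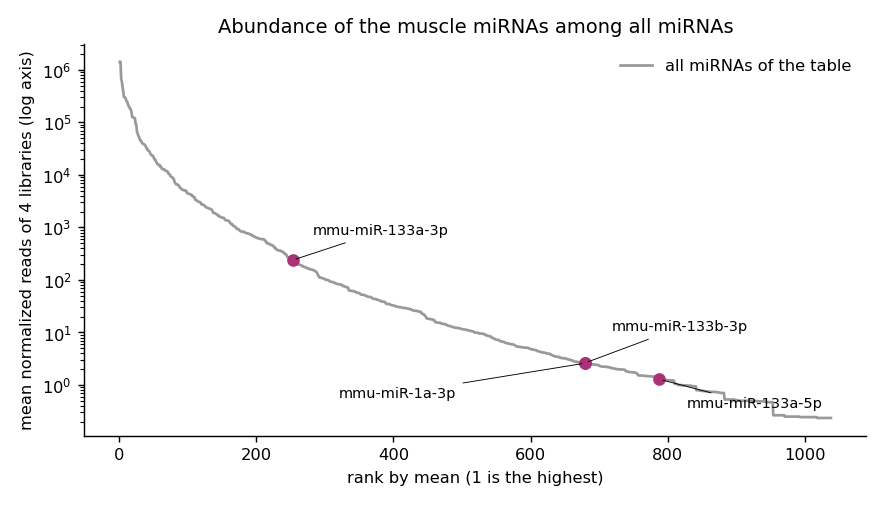
Mean normalized reads of the 4 libraries (vertical log axis) against rank (horizontal axis) for all 1038 miRNAs, with the 4 measured muscle miRNAs as points. miR-133a-3p has a mean of 239 normalized reads, and the other 3 have means of 1.28 to 2.62.

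miR-133a-3p, the guide arm of the miR-133a hairpin, was the member with reads in every library. Its reads numbered 229 in the first control library (a) and 348 in the second (b), and 384 in the CUMS libraries together, of which 178 were in CUMS library b. As CPM, the reads scaled to a common library total, the levels were 21.7 and 32.3 in the controls (Wilson 95% intervals 19.1 to 24.7 and 29.1 to 35.8), and 19.8 and 18.6 after CUMS (17.2 to 22.6 for library a, and up to 21.5 for library b). Control library b was the highest of the 4, and the interval of control library a overlapped those of both CUMS libraries.

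After division by the authors' size factors, miR-133a-3p had 224 and 348 normalized reads in the controls, against 194 and 189 after CUMS. Each CUMS value was below each control value, an order also held by 17.4% of the 628 miRNAs whose mean reached 5 in either group. The group means were 286 and 191, a ratio of CUMS over control of 0.669, or -0.58 on the log2 scale. This is a fold of 1.49, just short of the 1.5 that the study used as its threshold. Past that fold in either direction were 25.6% of the 628 miRNAs and none of the 4 members, of which 1 reached that mean. With TMM scaling in place of the authors' size factors, the log2 ratio of miR-133a-3p was -0.61 and it passed the fold. Counting error alone gives the ratio of the reads, 384 against 577, an exact 95% interval of 0.588 to 0.765 after scaling, but the spread between the control libraries is not in that interval.

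The difference of miR-133a-3p did not pass a test over libraries. An exact permutation test, two-sided, gave p = 0.333, the smallest value that 2 against 2 libraries allow. In the edgeR quasi-likelihood fit to the recovered reads, the log2 fold change was -0.61 with an unadjusted p of 0.0586. The Benjamini-Hochberg adjusted p of edgeR was 0.849, which was also the smallest adjusted value over the 719 miRNAs tested. DESeq2 gave -0.58 with a standard error of 0.32, an unadjusted p of 0.0654 and an adjusted p of 0.998. Among all 719 miRNAs, edgeR called 0% at an adjusted p under 0.05 and 4.17%, or 30 miRNAs, at an unadjusted p under 0.05, miR-133a-3p not among them. DESeq2 called 0 and 24. The value also rested on 1 library, since without control library b the log2 ratio was -0.23 and without control library a it was -0.86.

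**Figure D2:**
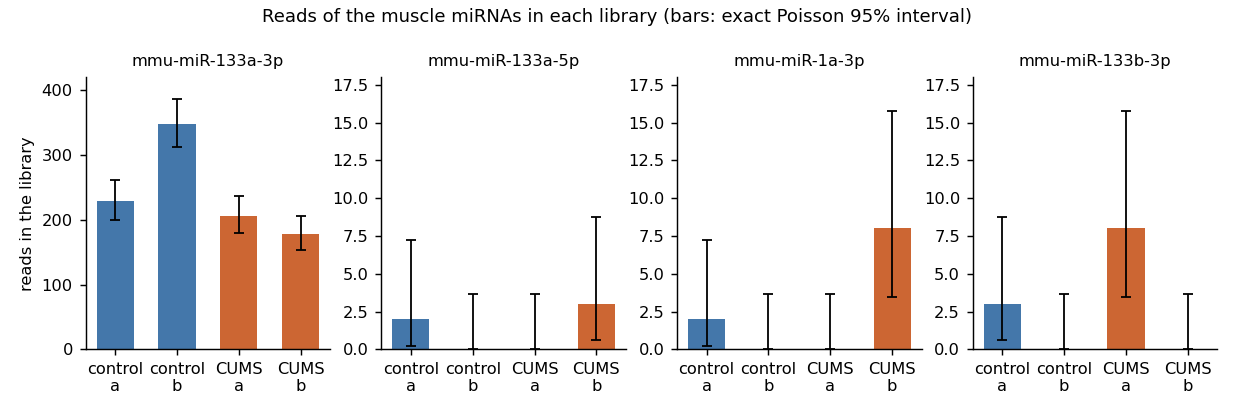
Reads of each measured muscle miRNA (vertical axes, starting at 0; the scale of miR-133a-3p differs from that of the others) in the 2 control and 2 CUMS libraries; columns are reads and error bars are exact Poisson 95% intervals. miR-133a-3p has 178 to 348 reads, while each of the others has 0 reads in 2 of the 4 libraries.

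Over the 623 miRNAs of these 628 with reads in both groups, the median log2 ratio was 0.02, and 13.2% had a lower ratio than miR-133a-3p. To set its spread beside that of miRNAs with like counting error, the 71 other miRNAs with a mean of 119 to 477 normalized reads were examined. The gap between the control libraries of miR-133a-3p was 0.64 on the log2 scale, against a median of 0.20 for these 71, and 2 of the 71 had a larger one. The gap between its CUMS libraries was 0.04, against a median of 0.29, and 65 of the 71 had a larger one. The size of its group difference was 0.58, against a median of 0.21, and 3 of the 71 had a larger one. The control libraries of miR-133a-3p were thus farther apart than its group means. Each CUMS value was below each control value for 18 of the 71, or 25.4%.

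**Figure D3:**
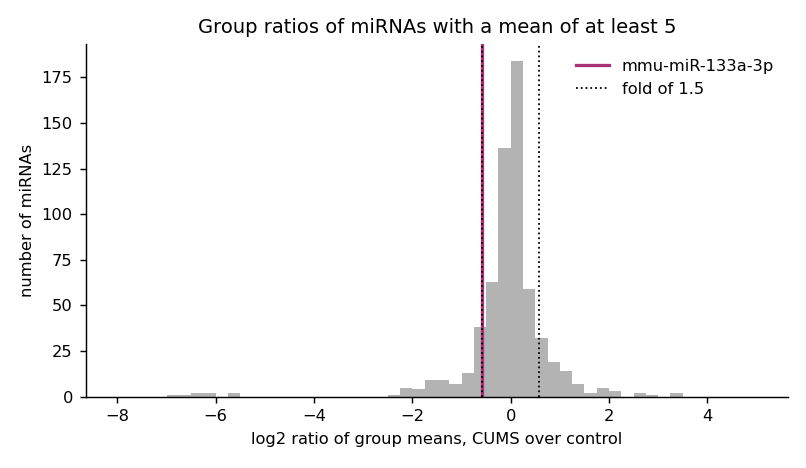
Number of miRNAs (vertical axis) by log2 ratio of the CUMS mean over the control mean (horizontal axis), for the 623 miRNAs that reached a mean of 5 and had reads in both groups. The solid line marks miR-133a-3p at -0.58, next to the dotted line at a fold of 1.5.

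**Figure D4:**
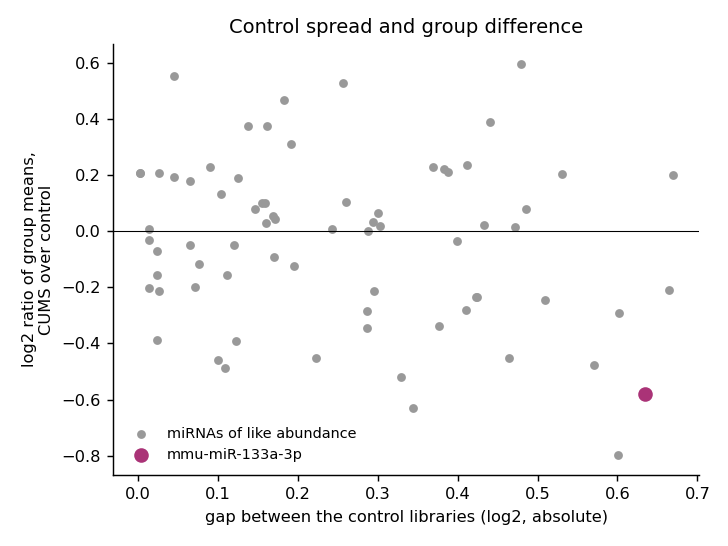
Log2 ratio of the group means, CUMS over control (vertical axis), against the absolute log2 gap between the control libraries (horizontal axis) for miR-133a-3p and the 71 miRNAs of like abundance. miR-133a-3p lies at a gap of 0.64 and a ratio of -0.58.

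The remaining members were near the limit of detection, and control library a alone held reads of all 3. miR-1a-3p, the miR-1 arm that acts in muscle, had 2 and 0 reads in the controls, against 0 and 8 after CUMS. miR-133b-3p, whose sequence is shown above, had 3 and 0 reads in the controls, against 8 and 0 after CUMS. miR-133a-5p, the opposite arm of the miR-133a hairpin, had 2 and 0 reads in the controls, against 0 and 3 after CUMS. The CUMS reads of miR-1a-3p and miR-133a-5p were thus all in CUMS library b and those of miR-133b-3p all in CUMS library a. Control library b, the highest in miR-133a-3p, had 0 reads of each of these 3.

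Neither miR-1a-3p nor miR-133b-3p differed between the groups beyond the spread of the libraries. The group means of miR-1a-3p were 0.978 and 4.24 normalized reads, a ratio of 4.33. The ratio of its summed reads, 8 against 2, had an exact counting interval of 0.805 to 39.0 after scaling. The means of miR-133b-3p were 1.47 and 3.77, a ratio of 2.57. For its summed reads, 8 against 3, that interval was 0.645 to 15.7. The groups overlapped in both, and the exact permutation p was 1 for each. The adjusted p of edgeR was 0.931 for both. Both groups of miR-133a-5p were at or under the floor of 3 reads in every library, so no fold is given for it.

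miR-1a-3p and miR-133a-3p share a transcript, and their reads were compared within each library, where the size factor cancels. Over all 4 libraries there were 961 reads of miR-133a-3p and 10 of miR-1a-3p, or 96.1 to 1 (exact interval 52.0 to 201). miR-1a-3p made up 4.30% of the reads of the pair in CUMS library b (8 of 186, exact interval 1.87% to 8.30%). In control library a it made up 0.866% (2 of 231, interval 0.105% to 3.09%). In control library b it had 0 of 348 reads, and the floor of 3 reads allows a share of up to 0.862%. For CUMS library a, also at 0, that floor allows up to 1.46%. The exact intervals of these libraries reach 1.05% and 1.77%. CUMS library b was thus the highest and CUMS library a was tied at 0 with control library b, so that the groups overlapped.

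The arms of the miR-133a hairpin were as unequal. There were 961 reads of the 3p arm and 5 of the 5p arm, or 192 to 1 (exact interval 82.1 to 593). The 5p arm made up 0.866% of the reads of both arms in control library a and 1.66% in CUMS library b, and it had 0 reads in the other 2 libraries. Between the miR-133 paralogs, which share a seed but come from separate transcripts, there were 961 reads of miR-133a-3p and 11 of miR-133b-3p, or 87.4 to 1 (exact interval 48.6 to 176). miR-133b-3p made up 3.74% of their reads in CUMS library a (8 of 214, exact interval 1.63% to 7.23%) and 1.29% in control library a (3 of 232, interval 0.267% to 3.73%).

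The ratios were then compared between the groups with 1 read added to each count, since no log ratio exists for a library at 0. The mean log2 ratio of miR-133a-3p to miR-1a-3p was 7.35 in the control group and 6.00 in the CUMS group, a difference of -1.35. The ratio to miR-133a-5p differed by -0.77 and the ratio to miR-133b-3p by -1.14. The two-sided exact permutation p was 0.667 for each of the 3. Each difference turned positive without the CUMS library that held the reads of the rarer miRNA, to 0.34 for all 3. The differences of the ratios to miR-133a-5p and to miR-133b-3p also turned positive without control library b, to 0.33 and 0.16.

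The arms of miR-208a, miR-208b and miR-499, listed as other miRNAs of muscle, were also rare. The highest mean among them was 8.35 normalized reads, for miR-208b-3p. miR-208a, miR-208b and miR-499 are encoded in introns of myosin heavy chain genes, and 3 of the 6 arms listed had a row. miR-208b-3p had 9 and 10 reads in the controls, against 11 and 4 after CUMS. miR-499-5p had 2 and 4 reads in the controls, against 5 and 9 after CUMS. Its permutation p was 0.333 in the exact test and its adjusted p by edgeR 0.901. miR-208a-5p had 1 read, in control library a. edgeR called 0 of the 2 that it tested at an adjusted or an unadjusted p under 0.05.

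miRNAs of other cell types that a cortical dissection can hold were read in the same libraries, and edgeR called 0 of their members at an adjusted p under 0.05, as did DESeq2. At an unadjusted p under 0.05, edgeR called 6 of the 8 epithelial miRNAs and 0 of the others. In bulk tissue, fewer cells of a type and less RNA per cell cannot be told apart. The 8 epithelial miRNAs of the miR-200 and miR-182 clusters summed to 4047 normalized reads in control library a, 1004812 in control library b, and 4936 and 7329 in the CUMS libraries, and miR-200c-3p had reads in control library b alone. The library with the highest level of miR-133a-3p was therefore also the one with the epithelial reads, nearly all of them from miR-182-5p. Without this library the log2 ratio of miR-133a-3p was -0.23, in place of -0.58, and the part of the epithelial reads in the difference was not tested. The 2 miRNAs of the choroid plexus, the tissue that makes cerebrospinal fluid, summed to 16942 and 22015 in the controls, against 15959 and 12627 after CUMS, the same order of libraries as miR-133a-3p, with nearly all of the reads from miR-204-5p. The other marker, miR-211-5p, had another order, with 127 and 20 reads in the controls, against 92 and 17 after CUMS.

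Markers of the vessel wall did not all have the same order of libraries. The 4 smooth muscle miRNAs, arms of miR-143 and miR-145a, summed to 298134 and 210969 normalized reads in the controls, against 205361 and 293985 after CUMS, nearly all from miR-143-3p, which was lower in control library b than in control library a. miR-145a-3p was highest in control library b, as miR-133a-3p was, with 518 and 724 normalized reads in the controls, against 705 and 577 after CUMS. miR-145a-5p had 154 and 137 reads in the controls, against 151 and 218 after CUMS, and miR-143-5p had 2 and 5 reads, against 1 and 8. The 2 endothelial arms of miR-126a also differed from each other in order. miR-126a-3p had 1810 and 1868 normalized reads in the controls, against 1735 and 1589 after CUMS, the same order of libraries as miR-133a-3p. miR-126a-5p, which gave most of the endothelial reads, had 11883 and 10886 normalized reads in the controls, against 11285 and 13174 after CUMS. The 5 miRNAs of red cells ranged from 228594 to 269669 in sum, highest in CUMS library b. Nearly all of this sum came from miR-486a-5p and miR-486b-5p, with 121988 and 122275 reads in control library a. Whether the same reads were counted under both names was not tested. miR-451a had 332 and 315 reads in the controls, against 331 and 396 after CUMS, so the sum says little about it or the arms of miR-144. The part of vessel cells in the difference of miR-133a-3p was not tested.

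The 5 miRNAs whose pattern over the 4 libraries was most like that of miR-133a-3p were sought among 357 miRNAs whose mean reached 50. Likeness was the root mean square difference of log2 normalized reads, each centred on its own mean, which had a median of 0.392 over the 357. The closest was miR-375-3p, a miRNA known from endocrine cells, at 0.0578, with 4370 and 6434 reads in the controls, against 3731 and 3585 after CUMS. miR-130b-5p followed at 0.0604, with 177, 263, 165 and 152 normalized reads in the same order of libraries. miR-3061-3p, miR-6944-3p and miR-1983 followed at 0.0897, 0.110 and 0.115. All 5 were highest in control library b, and with 4 libraries such a likeness is a description only.

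**Figure D5:**
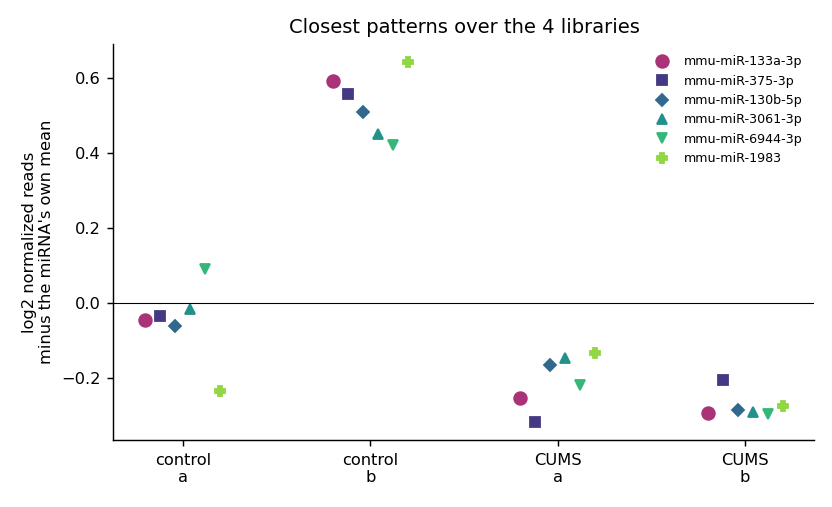
Log2 normalized reads minus each miRNA's own mean (vertical axis) in the 4 libraries (horizontal axis) for miR-133a-3p and the 5 miRNAs closest to it. All 6 are highest in control library b and below their own mean in both CUMS libraries.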

How the data were processed

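Small RNA libraries from the medial prefrontal cortex of control and CUMS mice (2 each) were analysed. The authors removed adaptors, contaminants and other noncoding RNAs, matched reads to miRBase precursors without mismatch and counted them per mature miRNA. Bowtie, DESeq and mm10 are named in the submitters' processing notes, without versions. The signal in the deposited table is the mean of each group's reads divided by DESeq size factors. The 5 other columns (overall mean, fold, its log2, p and adjusted p) were not used. As no column is named for a group, control and CUMS were assigned from the values the study prints under each.

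Reads per library were recovered as 2 whole numbers times 2 steps per column. 100% of the values were whole to a relative tolerance of 1e-09, and 2 control values had a second solution with a residual less than 10 times the smallest. The recovery was tested on simulated data. Fits used edgeR 4.0.16 (TMM, at least 5 reads in a library) and DESeq2 1.42.0 in R 4.3.3, with Benjamini-Hochberg adjustment, as alternatives to the ratio of group means. Exact tests and intervals used scipy 1.17.1. The text names every member, every list described, and the 5 miRNAs with the closest pattern. Members and lists were chosen with earlier results of these data known.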

Additional observations from a re-analysis of the deposited data

How the results depend on the processing

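No paired analysis was possible because the deposited columns are group means and the recovered libraries carry no replicate numbers. The count of members past a fold of 1.5 was 0, and it was 3 with no minimum mean, 1 with TMM scaling (miR-133a-3p) and 0 to 2 when 1 library was left out. The 3 with no minimum mean were the rare members, at 0 to 8 reads in a library. The share of all miRNAs past the fold, 25.6% of 628, is given only for the minimum mean of 5 and the authors' size factors. The counts in the other settings thus have no share beside them and are not read as results about the members. The 2 members past the fold without CUMS library a were miR-133a-3p and miR-1a-3p, and miR-133b-3p was the 1 without CUMS library b. The log2 ratio of miR-133a-3p stayed negative, from -0.86 to -0.23 with 1 library left out and at -0.50 with scaling by total reads, where the median of all miRNAs was 0.10. With 1 library left out, the group difference in the log2 ratio of miR-133a-3p ranged from -3.04 to 0.34 for miR-1a-3p, from -1.87 to 0.34 for miR-133a-5p and from -2.62 to 0.34 for miR-133b-3p. It was 0.34 without CUMS library b for the first, 0.33 without control library b and 0.34 without CUMS library b for the second, and 0.16 without control library b and 0.34 without CUMS library a for the last. A pseudocount of 0.5 read, chosen after seeing the data, kept all 3 negative. The planned ratios without a pseudocount, and the folds of miR-1a-3p and miR-133b-3p without the library that held all reads of a group, gave no value, and the ratios with miR-206-3p were not run. At 0 to 8 reads, depth limits every statement on the 3 rare members.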

Other observations

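miR-1b-3p, which is outside the list and was chosen after its values were seen, had 0 and 0 reads in the controls, against 0 and 3 after CUMS. Its 3 reads lay in CUMS library b, the library that also held 8 reads of miR-1a-3p. The sequences of miR-1a-3p and miR-1b-3p were not compared.

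Glial and liver miRNAs were read in the same libraries. The 3 oligodendrocyte miRNAs summed to 7887 and 8365 normalized reads in the controls, against 6162 and 7338 after CUMS, and the 2 microglial miRNAs to 74.3 and 69.0 against 44.3 and 60.4. Each CUMS value was below each control value in both sums. Of the 628 single miRNAs whose mean reached 5 in either group, 17.4% had that order. Within the microglial list the order held for miR-142a-3p but not for miR-223-3p. The latter had 24.5 and 5.00 normalized reads in the controls, against 3.77 and 14.8 after CUMS. No member of either list had an adjusted p by edgeR under 0.05. The liver miRNA miR-122-5p had 0 reads in both control libraries and 1 read in each CUMS library. The 4 miRNAs of cortical neurons summed to 848711 and 722185 in the controls, against 812289 and 957777 after CUMS.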
